A study of Sus scrofa with 6 samples.

Results

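Long methylated blocks of the chromosome interiors were stretches of the pig genome in which the fragments of methylated DNA stayed dense over many consecutive kilobases, away from the chromosome ends. Chromosomes 1 to 18 were divided into 1 kb windows, fragments were assigned by their midpoint, and each library was scaled to the mean library size. A block was a run of 8 or more windows that each had a mean of at least 30 scaled fragments over the 6 libraries, with a start more than 15 Mb from both ends of the chromosome. The blocks were thus selected on the depth of the 6 libraries, and there were 1182. They were 1182 of 208623 runs of any length above the same depth, and 24.6% of the 4807 runs of 8 or more windows. The other 3625 runs of that length started within 15 Mb of an end and are called terminal blocks here, and 143899 interior runs spanned 1 to 7 windows. Depth inside the blocks is therefore described without a test.

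The study compared the longissimus dorsi, the long muscle of the back, of female Jinhua pigs, a Chinese breed, at 7 years (middle-aged, MA) and at 0.5 years (Young). Each age had 3 libraries, 1 from each of 3 pigs that shared housing and feed. Whole muscle was used, so fibres, connective tissue, fat and blood cells all contributed DNA, and a change in the make-up of the tissue cannot be told apart from a change within one cell type.

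In mammals, most cytosines in CpG dinucleotides carry a methyl group, and the exceptions cluster in CpG islands and active regulatory elements. Methylated DNA immunoprecipitation (MeDIP) uses an antibody against methylated cytosine to pull down sheared DNA, so the number of fragments over a window follows both the methylation and the number of CpGs there. Methylated CpGs that recur over many kilobases are common in CpG-rich gene bodies and repeats.

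The libraries held between 34801285 and 44341673 fragments. All windows of chromosomes 1 to 18 had a mean scaled count of 17.7 and a median of 7.33, against a median of 67.5 over the blocks. A block had a median of 644 fragments in a library and never fewer than 115, and the median SD between the 6 libraries was 0.11 on the log2 scale. MA 3 and Young 1 were lower than the other libraries in many regions of high depth, but not in all. Results that rest on them are given with and without both. The number marking a replicate was not used to pair the libraries in the main tests.

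The blocks were unevenly spread over the genome. They covered 12.6 Mb, which was 0.791% of the 1597 Mb of interior sequence, whereas terminal blocks covered 8.88% of the terminal windows. Per Mb there were 0.740 interior blocks and 6.71 terminal blocks. Every one of the 18 chromosomes held at least 1 block. Chromosome 6 held 243 and chromosome 3 held 204, so that 37.8% of the blocks lay on 11.7% of the interior length. Relative to its interior length chromosome 12 was the richest, with 96 blocks or 3.50 per Mb. The poorest were chromosomes 13 and 15 with 8 blocks each, at 0.0694 and 0.0765 per Mb, and the largest chromosome, chromosome 1, held 43 blocks at 0.162 per Mb. The acrocentric chromosomes 13 to 18 together held 12.3% of the blocks on 27.8% of the interior length.

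**Figure D1:**
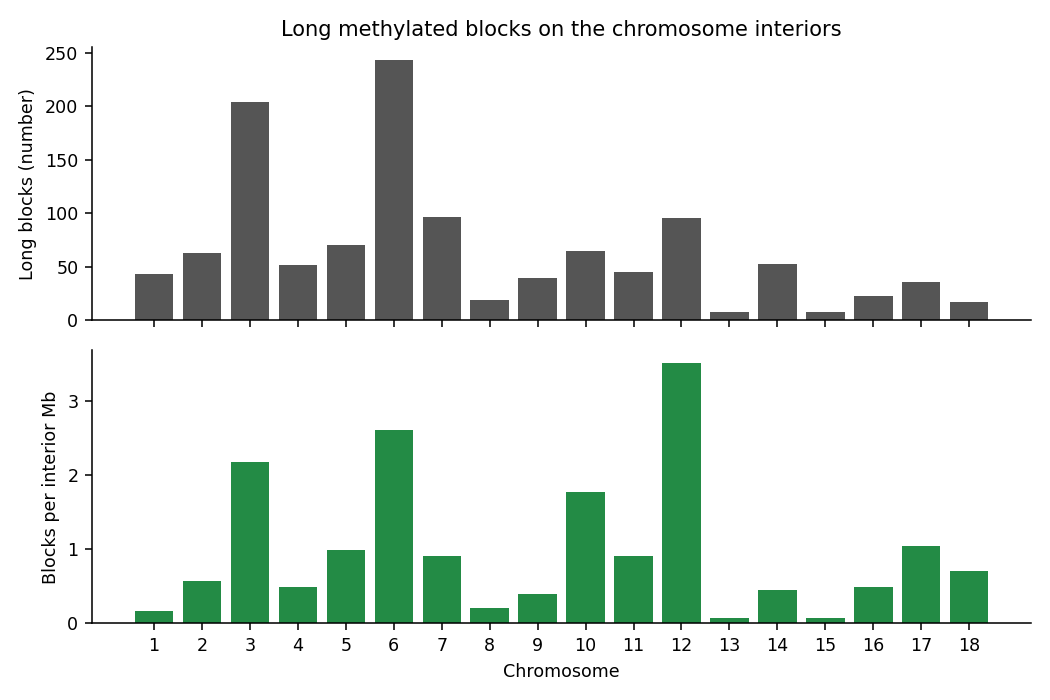
Number of long blocks (upper bars) and blocks per Mb of interior sequence (lower bars) on each of chromosomes 1 to 18. Chromosomes 3 and 6 held the most blocks (204 and 243), chromosome 12 held the most per Mb (3.50), and chromosomes 13 and 15 held 8 each.

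Within the chromosomes the blocks lay in groups. Blocks started in 375 of the intervals of 1 Mb, and the 74 of these with 5 or more starts held 54.6% of all blocks. The fullest were chr3:35000001-36000000, chr3:36000001-37000000 and chr10:24000001-25000000 with 23 starts each, followed by chr6:43000001-44000000 with 21 and chr12:31000001-32000000 with 20 (all coordinates are in build Sscrofa9.2). The median distance to the nearest other block was 38 kb, and 67.7% of the blocks had a neighbour within 100 kb. In 63 cases 2 neighbouring blocks were parted by a single window, whose median count was 19.8, and in 3 of these the parting window was under 10. The median distance of a block from the nearest chromosome end was 29.1 Mb. Blocks were more frequent close to the 15 Mb limit, with 35.5% of them but only 22.5% of the interior windows under 25 Mb from an end.

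Most blocks were close to the shortest length the rule allowed. The median length was 9 kb, 626 blocks (53.0%) were 8 or 9 kb long, and 48 were 20 kb or longer. Terminal blocks had a median of 11 kb and reached 93 kb, and 12.3% of them were 20 kb or longer, against 4.06% of the interior blocks. Longer blocks were also denser, with a median count of 63.5 per window for blocks of 8 or 9 kb and of 82.4 for those of 20 kb or more. Between the 5th and the 95th percentile the mean count of a block ran from 48.6 to 100.4, and the median was 67.5, compared with 80.8 for terminal blocks. Just outside the length limit, the 586 interior runs of 7 windows had a median count of 62.7, close to the 64.4 of the blocks of 8 windows. At the depth limit the lowest window inside any block had a count of 30.0039 and the highest window beside one 29.9918. The first block inside the distance limit started 15.05 Mb from an end, and the last terminal block 14.95 Mb.

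The surroundings of a block were dense as well. By the rule the first window outside falls below 30, and its median was 18.2, but at 3 kb from the edge the median was back at 34.5. At 20 kb it was 28.2, and 48.1% of the windows there were at 30 or more, compared with 14.3% of all interior windows. Windows under 10 made up 24.3% of those at 20 kb and 61.6% of the interior. Inside the blocks the medians of the 6 libraries ran from 55.2 to 58.1 in the outermost window. In the fourth window, the deepest that every block has on both sides, they ran from 58.3 to 63.4. Only the 12 kb or longer blocks have a sixth window on both sides, at 584 of 2364 edges. There the medians of MA 3 and Young 1 were 60.4 and 64.8, lower than those of the other libraries, which ran from 73.0 to 76.3. The set of blocks thus changed with the distance, and a trend within blocks was not tested.

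**Figure D2:**
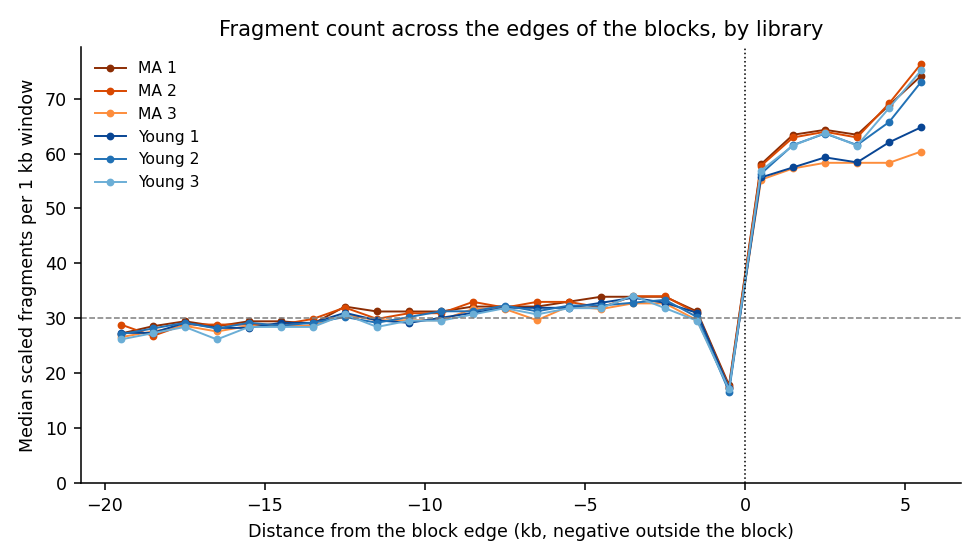
Median scaled fragment count per 1 kb window (y axis) against the distance from the nearest block edge in kb (x axis, negative outside), with 1 line for each library; the dashed line marks the limit of 30. The 6 lines coincide outside the blocks and in the first window outside drop to between 16.7 and 17.9. Deep inside, where only the longer blocks contribute, MA 3 and Young 1 lie below the others.

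At a finer scale no block was uniform. In bins of 50 bp the median scaled depth per position was 14.7 in the blocks, with a 10th percentile of 2.92 and a 90th percentile of 40.9. The mean over chromosomes 1 to 18 was 4.61, and 16.6% of the bins inside blocks lay under it, compared with 12.4% in terminal blocks. At least 1 such bin occurred in every block, and the longest continuous stretch under the mean depth had a median of 500 bp over the blocks and a maximum of 1250 bp. Bins with a depth of 10 or more made up 64.0% of the blocks and 12.9% of the 18 chromosomes. The number of blocks also depended on the window. With windows of 500 bp, a limit of 15 and runs of 16, the same 8 kb of unbroken depth was met by 117 runs. The part of the unevenness at 50 bp in this number was not tested.

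A few blocks owed their height to windows with extreme counts, between 1 and 5 in a block. There were 21 windows over 1000 in 9 blocks, of 121 such windows on chromosomes 1 to 18. The densest block, chr16:32338001-32346000, had 32545, 32144 and 35403 scaled fragments per window in MA 1, 2 and 3, and 30944, 22656 and 25629 in Young 1, 2 and 3. Its 8 kb alone received between 0.458% and 0.715% of the fragments of a library, and the young libraries Young 2 and Young 3 had the lowest values. All MA libraries were above all Young libraries, and the highest library exceeded the lowest 1.56-fold. The log2 difference was 0.35 (SE 0.89, adjusted p = 0.931 in limma). Limma draws each SE toward a trend of the variance against mean depth over all runs. At this depth the SE therefore does not measure the spread of these 6 libraries alone. Without MA 3 and Young 1, a fit chosen after seeing the data, limma gave 0.42 with an adjusted p of 4.01e-06. That fit sets its own trend, so its p-value does not compare like with like. The next densest block was chr2:86634001-86653000, with 2651, 2401, 1311, 1890, 2519 and 2704 in the same order of libraries. Here MA 3 and Young 1 were the lowest, although 1 of the 19 windows, at 22691, made up most of the sum. The blocks chr10:18854001-18870000 and chr10:15271001-15282000 had mean counts of 1032 and 509.4, with MA 1 the highest library in both, at 1566 and 655.7.

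Fragments that repeated the chromosome, start and end of another fragment of the same library, with the first copy not counted, were concentrated in these 9 blocks. They made up 8.84% to 12.2% of the fragments in all blocks, and 0.914% to 1.29% of those outside. Without the 9 blocks the share inside blocks was 0.383% to 0.592%. The fragments outside still included the other 100 windows over 1000, so values without the 9 blocks do not compare like with like. The fragment intervals inside blocks were longer than those outside by 4.61 ± 0.523 bp (SD, n = 6 libraries), with the same sign in 6 of 6 (p = 0.03125 in an exact permutation of the signs, two-sided, which is the smallest value 6 pairs of means can give). Without the 9 blocks this difference was 1.21 ± 0.936 bp, still positive in each library but as small as 0.103 bp in MA 2. With the 9 blocks included, both short and long intervals were more frequent in the blocks in each library. These length classes were not computed without the 9 blocks. In MA 1, 2.47% of the intervals in blocks and 1.34% outside were under 150 bp, and 20.5% and 16.5% were 300 bp or longer.

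The libraries differed more in the blocks on some chromosomes than on others. MA 3 and Young 1 were the 2 lowest libraries in 402 blocks (34.0%), compared with 57.7% of the terminal blocks, 7.23% of the short interior runs and 9.45% of all runs. On chromosomes 6 and 3 this held for 48.1% and 46.1% of the blocks, and on chromosome 16 for 4.35%. The median log2 difference of the 2 libraries from the others was -0.15 and -0.10 on chromosomes 6 and 3. On chromosomes 11 and 16 it was positive, at 0.06 and 0.05. MA 3 was the lowest library in 439 blocks and the highest in 258, and Young 1 the lowest in 208 and the highest in 78. Young 2 was the lowest in 234, more often than Young 1, Young 3 in 160, MA 1 in 76 and MA 2 in 65. The median log2 deviation of a library from the mean of the 6 was -0.04 in MA 3 and -0.05 in Young 1, and between -0.01 and 0.06 in the other libraries. In terminal blocks the same deviations were -0.16 and -0.10, whereas in short interior runs MA 3 and Young 1 were at 0.06 and 0.03, above the mean. The highest library exceeded the lowest at least 2-fold in 69 blocks, and MA 3 and Young 1 were the lowest pair in 65 of these, 54 of which lay on chromosomes 3 and 6. The median ratio of highest to lowest library was 1.23 over the blocks, 1.27 over terminal blocks and 1.53 over interior runs of 1 to 7 windows, which hold fewer fragments. The 2 libraries belonged to different ages and shared no replicate number. Their shares of fragments in the less covered part of the windows were 10.2% and 10.7%, against 8.93% to 10.3% in the others. Young 3, at 10.3%, was above MA 3, so this share did not set the pair apart. Its part in the pattern was not tested.

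The longest blocks showed this pattern. The longest of all, chr1:155217001-155260000, spanned 43 kb with counts per window of 110.7, 103.5 and 70.6 in MA 1, 2 and 3 and of 80.0, 109.2 and 114.9 in Young 1, 2 and 3. MA 3 and Young 1 were the lowest there, and the ages overlapped. The second longest, chr6:42657001-42693000 with 36 kb, was more even, at 99.6, 99.7, 82.1, 85.7, 94.3 and 98.1. A 36 kb block, chr3:34512001-34548000, had 70.6, 66.6 and 60.8 in MA and 74.4, 80.2 and 81.6 in Young, and all 3 MA values were below all 3 Young values (log2 difference -0.26, SE 0.12, adjusted p = 0.566). The other 4 of the longest blocks on chromosome 3 lay between chr3:33676001 and chr3:36203000, with MA 3 and Young 1 the lowest libraries in each. The highest ratio of these 4, 2.49, was that of the 31 kb block chr3:35379001-35410000, with 48.0 in MA 3, 70.1 in Young 1 and 97.8 to 119.4 in the others. The 31 kb block chr11:34870001-34901000 held 3 windows over 1000. It ranged from 86.6 in MA 3 and 211.4 in Young 1 to 1097 in Young 2, a ratio of 12.7 between the highest and the lowest library.

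By the rule applied to single libraries, MA 1 had 1185 blocks, MA 2 had 1099, MA 3 had 1109, Young 1 had 1137, Young 2 had 1002 and Young 3 had 992. The ages overlapped, since Young 1 had more blocks than MA 2 and MA 3. Ranked by blocks, the libraries stood in the same order as by fragments, from 44341673 fragments in MA 1 to 34801285 in Young 3. Of the 1182 blocks, 120 had every window at 30 or more in all 6 libraries, and 75.9% of the block windows did so. The mean of the 3 MA libraries alone gave 1253 blocks and that of the Young libraries 1078. Counts were scaled but not drawn down to equal numbers of fragments, and the part of library size in these numbers was not tested.

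The blocks took up 3.37%, 3.30% and 2.95% of the fragments of MA 1, 2 and 3, and 2.99%, 3.11% and 3.26% of Young 1, 2 and 3. The ages overlapped, with means of 3.21% ± 0.225 (SD, n = 3) in MA and 3.12% ± 0.132 (SD, n = 3) in Young. The difference of 0.0863 percentage points did not exceed the SD of either age (p = 0.7, two-sided exact permutation, with 0.1 the smallest value for 3 against 3 libraries). Without the densest block the direction turned, at -0.0542 percentage points (exact p = 0.6). Terminal blocks took 9.004% in MA 3, 9.65% in Young 1 and 11.2% to 11.7% in the other libraries.

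No block and no window of a block passed the test for an age difference. Among all runs, limma called 4 of 208623 at an adjusted p below 0.01 (0.00192%), and 0 of the 1182 blocks. At an unadjusted p below 0.05 there were 81 blocks (6.85%, 50 higher and 31 lower in MA), against 8.87% of all runs. Most of all runs were short. A limma fit of the 4807 runs of 8 or more windows alone also called 0 blocks. It gave an unadjusted p below 0.05 for 129 of the 1182 blocks (95 higher and 34 lower in MA) and for 311 of the 4807 runs. Whether blocks had more or fewer small p than other runs thus depended on the runs fitted. Of the windows tested, 0.00263% were called and 0 of the 12625 block windows, and 899 block windows (7.12%) had an unadjusted p below 0.05, against 7.32% of all. The median log2 difference between MA and Young over the blocks was 0.02, as over all runs, and ran from -0.26 at the 5th to 0.21 at the 95th percentile. The median SE was 0.10. Without MA 3 and Young 1, an alternative chosen after seeing the data that leaves 2 libraries for each age, 11 blocks were called (2 higher and 9 lower in MA), with 0.169% of all runs called, and 34 block windows were called, with 0.136% of all windows called.

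In 179 blocks (15.1%) all 3 MA libraries were above all 3 Young libraries, an order seen in 8.63% of all runs and 9.74% of all runs of 8 or more windows. The opposite order occurred in 55 blocks (4.65%), against 6.51% and 3.49%. Among single windows of the blocks, 8.95% had all MA above all Young and 4.39% the opposite, against 7.51% and 5.85% of all windows tested. Library scaling moved this split. With TMM factors, which align the bulk of the windows, the counts were 164 (13.9%) and 33 (2.79%), against 9.56% and 5.65% of all runs. With a loess curve against the mean depth they were 89 (7.53%) and 60 (5.08%), against 7.39% and 7.73%, so the share of blocks higher in MA lay close to that of all runs. Without MA 3 and Young 1 they were 383 (32.4%) and 203 (17.2%), against 21.7% and 18.6%. How many blocks had all MA libraries above all Young libraries therefore depended on the scaling. The sign of the log2 difference moved less with the scaling. It was positive in 691 of the 1182 blocks in the main fit, in 719 with TMM factors and in 712 with loess. It did move with the libraries used, from 626 blocks without Young 1 to 893 without MA 3, with 740 without both. The share of positive differences over all runs was not computed. The median log2 difference was 0.02 over all runs and -0.01 over the runs of 8 or more windows fitted alone.

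**Figure D3:**
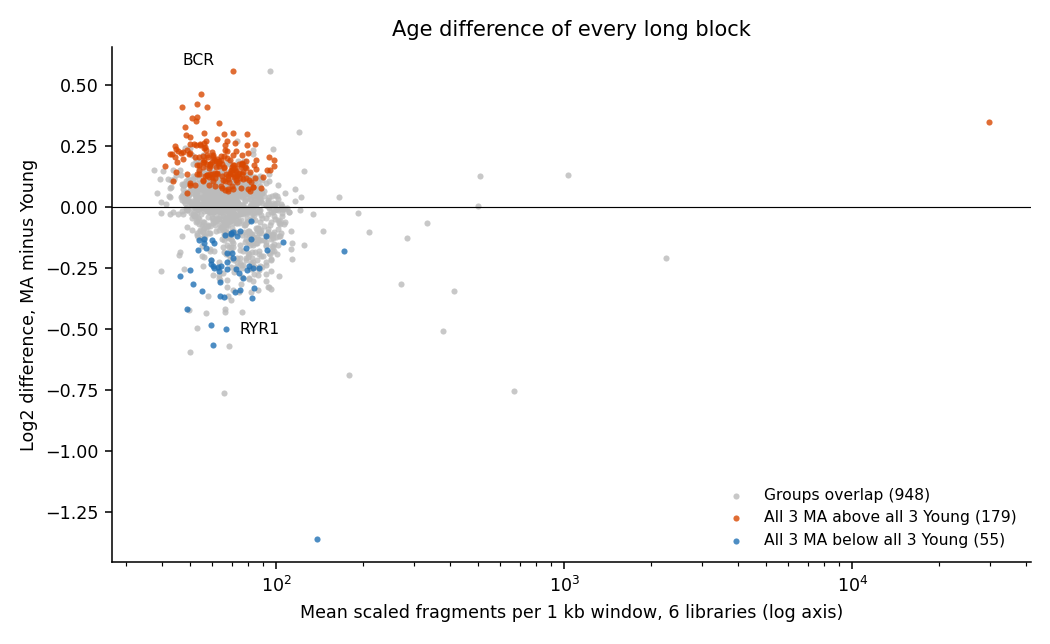
Log2 difference between MA and Young (y axis) against the mean scaled count per window on a log axis (x axis) for the 1182 blocks, coloured by whether the 3 MA and 3 Young libraries overlap. Most points lie within 0.26 of zero, the lowest point is the chromosome 3 block at -1.36, and the point on the far right is the densest block.

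The block with the largest age difference was chr3:26019001-26037000. It had 64.8, 127.4 and 53.5 scaled fragments per window in MA 1, 2 and 3, against 187.5, 200.3 and 199.2 in Young 1, 2 and 3. All 3 MA libraries were below all Young libraries, but MA 2 was about midway between the others, so the spread within MA was wide. The log2 difference was -1.36 (SE 0.25), with an unadjusted p of 0.00026 and an adjusted p of 0.173 in limma. Without MA 3 and Young 1 it was -1.14 with an adjusted p of 0.00221. The difference ran through the whole 18 kb rather than sitting in a single peak: MA was below Young without overlap in 16 of the 18 windows. Relative to the Young mean, the median window stood at 0.353 in MA 1, 0.648 in MA 2 and 0.313 in MA 3. The Young libraries followed each other closely along the block, and the peaks of MA lay at the same positions at lower height.

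**Figure D4:**
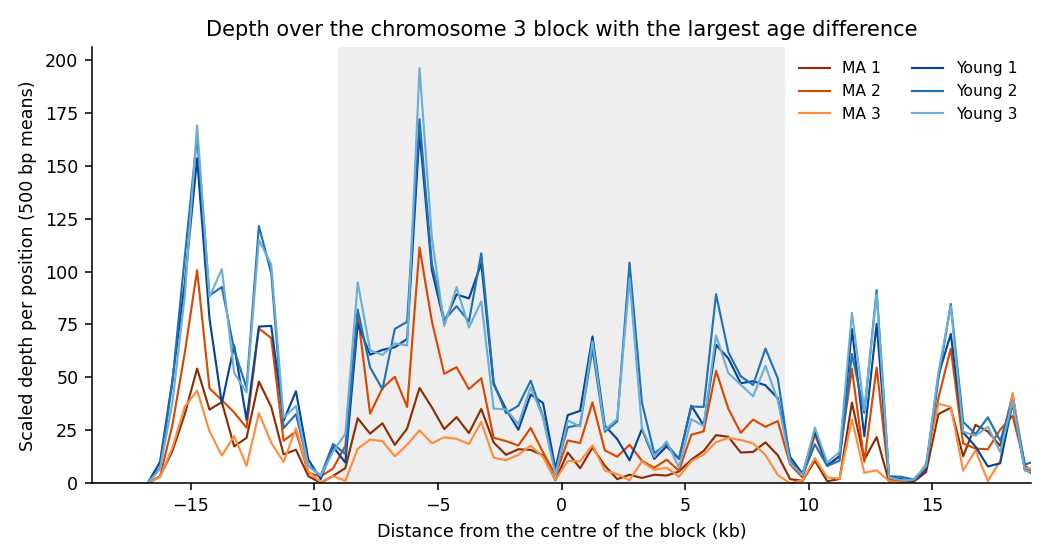
Scaled depth per position in 500 bp means (y axis) against the distance in kb from the centre of the 18 kb chromosome 3 block (x axis, shaded), with 1 line for each library. The 3 Young lines run together, and MA 2 and then MA 1 and MA 3 follow the same peaks at lower depth.

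The largest difference in the other direction, at chr1:266546001-266554000, came from unequal MA libraries. MA 1, 2 and 3 had 46.8, 110.9 and 205.7, and Young 1, 2 and 3 had 73.0, 70.0 and 65.6. MA 3 was the highest library in 8 of the 8 windows and MA 1 the lowest in 7, so the ages overlapped (log2 difference 0.56, SE 0.39, adjusted p = 0.718). This value was 1.12 without MA 1 and 0.05 without MA 3. Next were 2 blocks in which the ages did not overlap. The block chr14:50312001-50320000 had 72.5, 93.9 and 86.7 in MA and 57.1, 59.2 and 54.8 in Young (log2 difference 0.56, SE 0.11, adjusted p = 0.191), and chr3:90870001-90879000 had 61.6, 64.0 and 65.1 in MA and 46.3, 47.5 and 44.5 in Young (0.46, SE 0.09, adjusted p = 0.185). On the lower side, chr3:36445001-36453000 had 75.6, 63.1 and 14.7 in MA and 31.6, 102.0 and 107.0 in Young (log2 difference -0.76, SE 0.58, adjusted p = 0.742). MA 3 and Young 1 were the lowest, and the difference ran from -1.34 without Young 1 to -0.02 without MA 3. It was -0.60 without both (adjusted p = 0.00261 in limma). The chromosome 11 block described above followed at -0.76 (SE 0.83). Its value turned to 0.30 when MA 3 was left out and the low Young 1 kept. Without both it was -0.49 (adjusted p = 8.68e-05 in limma). The fit without both was chosen after seeing the data.

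The window with the smallest adjusted p of all block windows, 0.0495, was chr5:75131001-75132000 with 49.1, 60.9 and 34.8 in MA and 10.0, 13.6 and 12.5 in Young. It lay in the block chr5:75125001-75133000, whose counts were 67.8, 58.8 and 69.4 in MA and 52.0, 45.8 and 49.5 in Young. The window did not pass the threshold of 0.01.

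Blocks lower in MA were concentrated in one region of chromosome 12, singled out after the values were seen. Of the 55 blocks with all MA libraries below all Young libraries, 11 were among the 20 blocks that started in chr12:31000001-32000000. The next fullest megabase held 4 of the 55. Some of the 11, such as chr12:31169001-31177000 and chr12:31178001-31188000, were parted by a single window, so the 11 are not separate observations. From the first to the last of the 11, chr12:31169001-31461000, there were 14 blocks in 292 kb. All 14 had a log2 difference below 0, with a median of -0.28 and a range from -0.37 to -0.01, and none passed the test (smallest adjusted p 0.298). The region as a whole had 50.4, 52.3 and 51.1 scaled fragments per kb in MA 1, 2 and 3 and 62.9, 60.6 and 62.2 in Young 1, 2 and 3. The means were 51.3 ± 0.988 and 61.9 ± 1.20 (SD, n = 3), so that the ages lay further apart than the libraries within either age. No test is given, because the region was chosen for this order.

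The difference was also present between the blocks. The limits of the region were set by the first and the last block with this order. The values inside and beside it are therefore no independent evidence. The 148 windows between the blocks of this region had 40.0 ± 0.892 in MA and 48.9 ± 0.954 in Young, a log2 difference of -0.29, and the 144 block windows had 62.9 ± 1.85 and 75.2 ± 1.61, a difference of -0.25. Averaged over the 100 kb before and the 100 kb after the region the log2 difference was -0.01 on each side, at mean counts from 37.1 to 38.8 and from 49.6 to 51.8. The change was not abrupt in bins of 20 kb. The bin directly before the region was at -0.20, with all MA libraries below all Young libraries, and the 3 bins from chr12:31449001 on were at -0.19, -0.08 and 0.01. Inside the region the ages overlapped in the bin chr12:31389001-31409000, and farther out 3 bins, at 0.11, 0.18 and 0.16, had all MA above all Young. MA 3 and Young 1 did not stand apart here, and with TMM factors MA ran from 48.4 to 54.5 and Young from 60.3 to 62.7. In bins of 20 kb over chromosomes 1 to 18, 7.86% had all MA libraries below all Young libraries. The stretch of 12 such bins in a row at chr12:31160001-31400000 was the second longest on these chromosomes, after 13 bins at chr5:4280001-4540000, which lies within 15 Mb of a chromosome end. In the other direction, which 9.04% of the bins showed, the longest stretch had 9 bins.

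**Figure D5:**
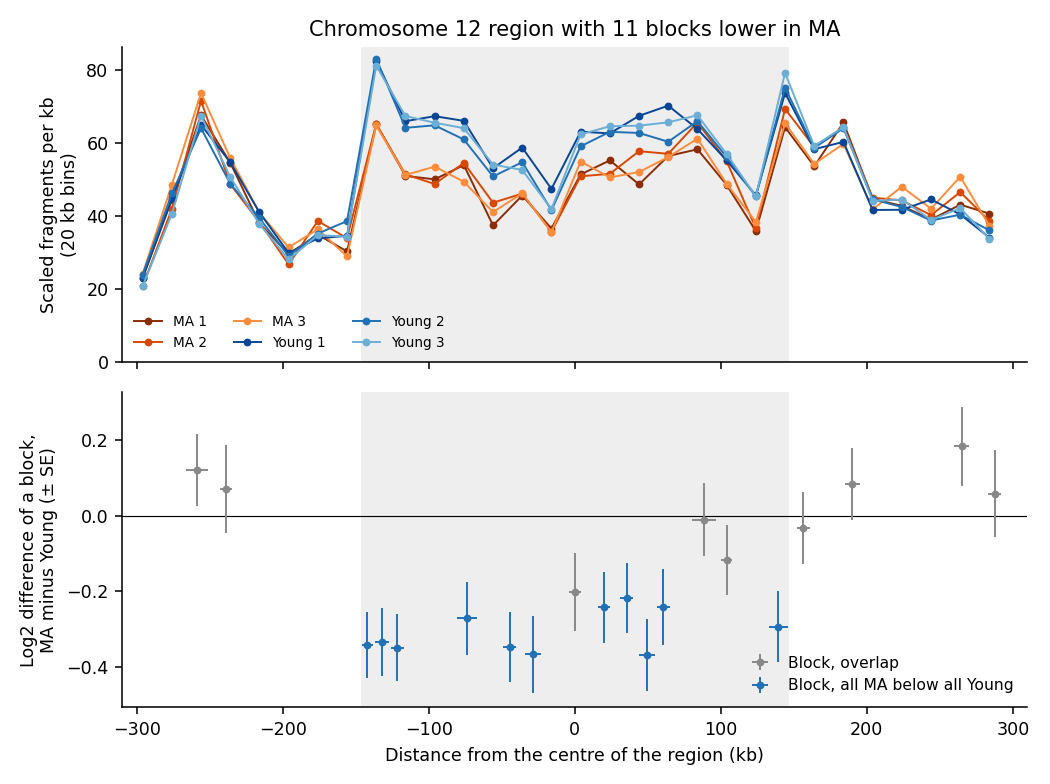
Upper plot: scaled fragments per kb in 20 kb bins (y axis) against the distance in kb from the centre of the 292 kb chromosome 12 region (x axis, shaded), with 1 line for each library. Lower plot: log2 difference of each block with its SE as vertical bar and its length as horizontal bar. Inside the region the MA lines lie below the Young lines except in 1 bin, and its blocks lie between -0.37 and -0.01, while outside the ages overlap in most bins.

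Another such region was on chromosome 7, where 11 bins in a row at chr7:33340001-33560000 and 7 at chr7:33580001-33720000 had all MA libraries below all Young libraries. These stretches were picked for this order after the values were seen. The same order in the 4 blocks inside them is therefore no further evidence. Among these was the block with the smallest p of all, chr7:33509001-33518000. It had 51.2, 47.0 and 50.5 in MA and 68.2, 71.9 and 68.0 in Young (log2 difference -0.48, SE 0.09, adjusted p = 0.172). Blocks higher in MA were less grouped: the fullest megabase, on chromosome 18 from 18 Mb, held 5 of the 179 among its 12 blocks, and 1 further block of that megabase was lower in MA.

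Genes could be named for 50 blocks from the list of differentially methylated regions (DMRs) of the study, of which the first 1997 rows were used for positions and names only. These rows were only part of the list, so other blocks may hold DMRs as well. The 50 blocks held 57 DMRs paired with 47 genes, 40 of the DMRs in introns, 14 in exons and 4 in promoters. The DMR at chr10:24981819-24981928 counted both as exon (KLHL12) and as intron (KDM5B). Because the list was drawn up from these same libraries by age, the differences of these blocks are not independent evidence. In 11 of the 50 all MA libraries were above all Young libraries and in 8 below, orders seen in 8.63% and 6.51% of all runs and in 15.1% and 4.65% of all blocks. With the windows of the DMRs left out it was 10 and 8. The 19 blocks of 11 kb or more carried 19 genes, which are described by their role.

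Calcium handling was represented by 2 genes, of which RYR1 encodes the calcium release channel of the sarcoplasmic reticulum, central to muscle contraction. The RYR1 block, chr6:32566001-32579000, had 58.1, 59.7 and 48.3 in MA and 71.5, 78.5 and 84.3 in Young. All MA libraries were below all Young libraries (log2 difference -0.50, SE 0.11, adjusted p = 0.242), also in 7 of its 13 windows, and the 12 windows without the DMR gave -0.49. Without MA 3 and Young 1 the difference was -0.47 with an adjusted p of 0.00392. ITPR3 encodes an inositol trisphosphate receptor, and its block chr7:34296001-34307000 had 75.8, 74.3 and 33.9 in MA and 55.8, 80.9 and 83.9 in Young. Here only MA 3 and Young 1 were low, and the log2 difference of -0.33 turned to 0.05 without MA 3.

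MSI2, which encodes an RNA-binding protein of the Musashi family, was the gene listed in 3 blocks of the chromosome 12 region. Its 11 kb block chr12:31359001-31370000 had 54.6, 60.9 and 56.4 in MA and 78.0, 69.9 and 73.9 in Young (log2 difference -0.37, SE 0.10, adjusted p = 0.305). The 13 kb block chr12:31448001-31461000 had 67.1, 72.0 and 68.1 in MA and 80.9, 84.3 and 88.8 in Young (-0.29, SE 0.09, adjusted p = 0.409). The other 11 blocks of the region carried no DMR among the rows used, and 8 of them had all MA libraries below all Young libraries.

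Among genes of chromatin and transcription, the blocks at FOXP4 (a forkhead factor), TCF7L2 (a mediator of Wnt signals) and KDM5B (a histone H3 lysine demethylase, listed with the neighbouring KLHL12, an adaptor of a ubiquitin ligase) had log2 differences of -0.03, 0.06 and 0.02. All 3 had overlapping ages. The FOXP4 block chr7:42251001-42267000 showed the 2 low libraries again, with 57.5 in MA 3, 59.8 in Young 1 and 76.3 to 78.9 in the rest. At the zinc finger gene ZNF646, chr3:15897001-15910000, MA 3 was at 34.9 and Young 1 at 55.8, against 69.3 to 91.5 in the others.

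The blocks at STARD3 (a lipid transfer protein of late endosomes), NTF3 (the growth factor neurotrophin 3), SNX30 (a sorting nexin) and TTLL6 (a tubulin-modifying ligase) had all MA libraries above all Young libraries, each by a small margin. At STARD3, chr12:20589001-20602000, MA had 73.7, 70.9 and 76.7 and Young 69.8, 57.7 and 66.7 (log2 difference 0.19, SE 0.10, adjusted p = 0.636). The other 3 were at 0.13 to 0.14. The ages overlapped in the blocks of ANKRD27, KIF26B, LRCH1, DGKH, UBE4B, NARFL and C20orf186.

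Further genes lay in shorter blocks and were picked after their values were seen. VDAC1, a channel of the outer mitochondrial membrane, had 68.3, 73.4 and 74.0 in MA and 88.6, 83.8 and 85.6 in Young in chr2:124103001-124112000 (log2 difference -0.26, SE 0.09, adjusted p = 0.449). All MA libraries lay below all Young libraries there. The block with the second largest positive difference, given above, lay at BCR, a regulator of small GTPases. ITGB5, an integrin subunit that anchors cells to the matrix, had 51.1, 62.9 and 58.4 in MA and 42.5, 47.4 and 43.9 in Young in chr13:101958001-101967000 (0.36, SE 0.11, adjusted p = 0.360).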

How the data were processed

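The files of the 6 MeDIP-seq libraries hold fragment positions (chromosome, start and end), and no score, intensity or count was deposited. The authors aligned paired-end reads to pig build Sscrofa9.2 with SOAP2, joined pairs into fragments and state that reads at one location were treated as one, yet repeated intervals are present in the deposited files. Fragments were counted here by midpoint in 1 kb windows and scaled to total fragments. Age was tested with limma on log2(scaled count + 1), separately for 951542 windows of chromosomes 1 to 18 and X with a mean of at least 10 and for all 208623 runs, with Benjamini-Hochberg adjustment at 0.01. Each SE from limma is drawn toward a trend of the variance against mean depth over all rows fitted. Shares and interval lengths were tested by exact permutation over libraries. The scripts were tested on simulated data.

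The members, gene lists and rules were chosen with earlier results of these data known. The blocks named are the longest (6, or 8 with the ties at 31 kb counted), the 4 densest of the rest, the 3 with the largest log2 difference in each direction, any called, and genes that the study's DMR list pairs with a position in a block of 11 kb or more. Blocks near the limits and those said to be picked after seeing values are further exceptions. The result of a further gene is not reported here. The main tests did not treat the replicate numbers as pairs. Over blocks, same-numbered libraries had deviations correlated at -0.78, 0.56 and -0.81. The first and the last of these pairs each hold MA 3 or Young 1. The correlations therefore cannot show whether a number marks shared handling. The share of fragments on the mitochondrial genome was 0.0441% to 0.115%. Uniqueness of alignment and copy number cannot be read from positions, and no genome of this build was used, so CpG content and sequence were not analysed here. Software was Python 3.11.15 with numpy 2.4.6, pandas 2.3.3, scipy 1.17.1 and matplotlib 3.10.9, and limma 3.58.1 in R 4.3.3.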

Additional observations from a re-analysis of the deposited data

How the results depend on the processing

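The number of blocks follows its limits: 1182 became 2085 at a window mean of 25, 687 at 35, 2770 with runs of 6 windows, 556 with runs of 10 and 117 with 500 bp windows. Shifting the windows by 500 bp, moving the end limit to 10 or 20 Mb, counting repeated intervals once, TMM factors and leaving out each library (1146 to 1222) kept it within 1.5 times. No block was called under TMM factors, loess, either pseudocount, repeated intervals counted once, the replicate block or the removal of any single library (0 to 0 blocks), and 0 or 1 block windows were called in these fits. The single window came with an adjusted p below 0.05 (1 window) and without MA 3 (range 0 to 1). Without MA 3 and Young 1, 11 blocks and 34 windows were called. This fit and the following ones on the order of the ages were chosen after seeing the data. Blocks with all MA above all Young, 179, became 89 with loess and 383 without MA 3 and Young 1, and 202 to 312 when single libraries were left out, with 312 without MA 3. Those below, 55, became 33 with TMM factors, 203 without MA 3 and Young 1, and 67 to 182 with single libraries left out, with 83 without MA 2 and 182 without Young 1. Fewer libraries overlap less by construction.

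The difference in the share of fragments, 0.0863 percentage points, was 0.00453 to 0.214 with single libraries left out and turned to -0.0542 without the densest block and -0.0209 without the blocks that hold a window over 1000. With permutation within replicate numbers as a replicate block its p was 0.75. The length difference of 4.61 bp was 4.43 to 4.69 bp with single libraries left out, at p = 0.0625 in exact permutation, the smallest that 5 libraries allow, and 4.46 bp without MA 3 and Young 1, at an exact p of 0.125. It was 1.21 bp without the blocks that hold a window over 1000. With single libraries left out, the log2 difference of chr11:34870001-34901000 ran from -1.54 to 0.30 and that of chr7:34296001-34307000 at ITPR3 from -0.53 to 0.053, and both turned without MA 3. Without MA 3 and Young 1 together, the chromosome 11 block was at -0.49. A block held a median of 644 fragments in a library, and the median SE of its log2 difference was 0.10.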
